A study of Arabidopsis thaliana with 116 samples.

Results

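Developing seeds of 116 Arabidopsis thaliana recombinant inbred lines were divided by the signal of a single transcript, that of AT5G03420, whose gene lies near the top of chromosome 5. Upper lines had the probe set of AT5G03420 above 6.17 on the log2 scale, lower lines had it at or below 6.17, and the division placed 51 lines in the upper group and 65 in the lower group, 116 of 116 in all. The lines were thus grouped by a measured value and not by a label, and that value is described here without a test. Every other probe set was then compared between the upper and the lower lines.

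Their parents are the accessions Col-0 and C24, crossed in both directions, and 59 have a name starting with Q and 57 a name starting with R. The sources used here do not say which letter stands for which cross direction, and parental arrays were not analysed here, so the parent that upper or lower lines resemble is not stated. Upper and lower lines share tissue, stage and growth conditions: seeds taken 10 to 11 days after flower opening, dissected from 8 siliques of each of 6 plants, and pooled into 1 RNA sample and 1 array per line. The line is therefore the replicate, plant to plant variation within a line was not measured, and in whole seeds fewer cells of a type and less RNA per cell cannot be told apart.

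A recombinant inbred line is a fixed mosaic of its parents' chromosomes, so lines that share an allele at one gene usually share the alleles of its neighbours, and this sharing fades along the chromosome. Genes within a set distance of AT5G03420 on chromosome 5 are called linked here, and genes on other chromosomes are called distant. AT5G03420 encodes PROTEIN TARGETING TO STARCH 3, a plastid protein that takes part in starting starch granules together with its relative PTST2. Arabidopsis seeds fill with starch early in development and later exchange it for oil and storage protein.

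AT5G03420 had 6.21, 6.73 and 7.21 as its lowest, median and highest log2 signal in the upper lines, against 5.31, 5.59 and 6.01 in the lower lines. Its mean was 6.72 ± 0.230 in the 51 upper lines and 5.61 ± 0.166 in the 65 lower lines (SD). A pair of normal curves fitted to all lines had modes at 6.72 and 5.62 on the log2 scale, 5.62 SD apart, and 1 line could not be given to either curve with a posterior of at least 0.9. The upper lines next to the threshold had 6.21, 6.27 and 6.39, and the lower lines next to it had 6.01, 5.92 and 5.92. Of the Q lines 30 were upper and 29 lower, so that 50.8% were upper. Of the R lines 21 were upper and 36 lower, so that 36.8% were upper.

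**Figure D1:**
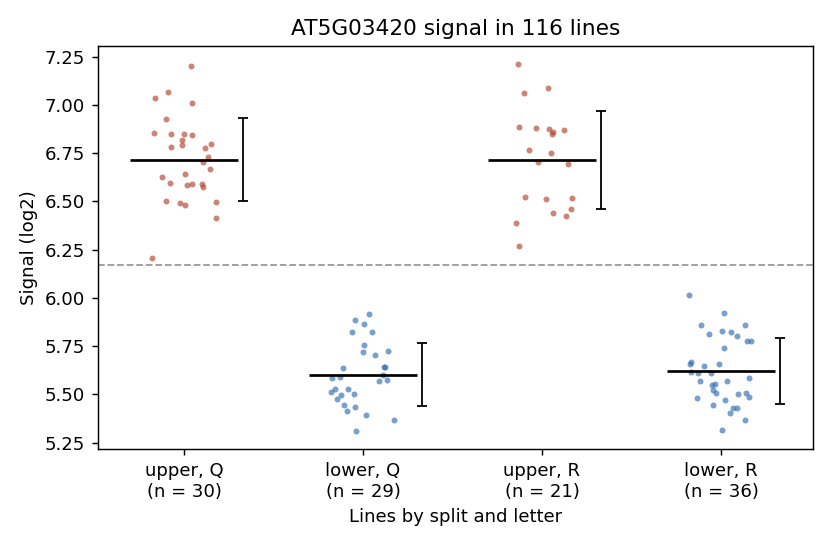
Log2 signal of AT5G03420 (vertical axis) in each of the 116 lines, by split and by letter of the line name (horizontal axis). Points are lines, horizontal bars are means, error bars are SD, and the dashed line is the threshold of 6.17. Upper lines reach down to 6.21 and lower lines reach up to 6.01 in this plot.

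In all, 517 of the 22745 other probe sets differed between upper and lower lines, which is 2.27% of those tested, of which 295 were higher in the upper lines (limma with the letter as a covariate, Benjamini-Hochberg adjusted p below 0.05 over all 22745). Positions were taken as places in the gene order of a chromosome, where AT5G03420 is gene 314 of 8420 on chromosome 5. Linked genes were those up to 1600 places away. Of 745 linked probe sets 23.4% differed, with 99 higher and 75 lower in the upper lines. On chromosome 5 beyond 1600 places 51 of 2262 differed, or 2.25%, and on the 4 other chromosomes 60 of 10359 differed, or 0.579%. Differences were therefore concentrated around the gene that made the split, and the linked share was the highest of these classes.

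The share of probe sets that differed was 47.5% of 40 within 50 places of AT5G03420, and it was lower with each step to 401 to 800 places. It was 32.6% of 46 at 51 to 100 places, 32.1% of 84 at 101 to 200 places and 28.9% of 121 at 201 to 400 places. It then stayed at a lower plateau, with 16.7% of 138 at 401 to 800 places and 17.4% of 316 at 801 to 1600 places. Beyond that it was 4.96% of 564 at 1601 to 3200 places, 1.06% of 1038 at 3201 to 6400 places and 1.82% of 660 at 6401 to 9000 places. Within 400 places both flanks held differences: 49 of 130 probe sets (37.7%) on the side of the chromosome end and 47 probe sets (29.2%) on the side of the centromere.

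**Figure D2:**
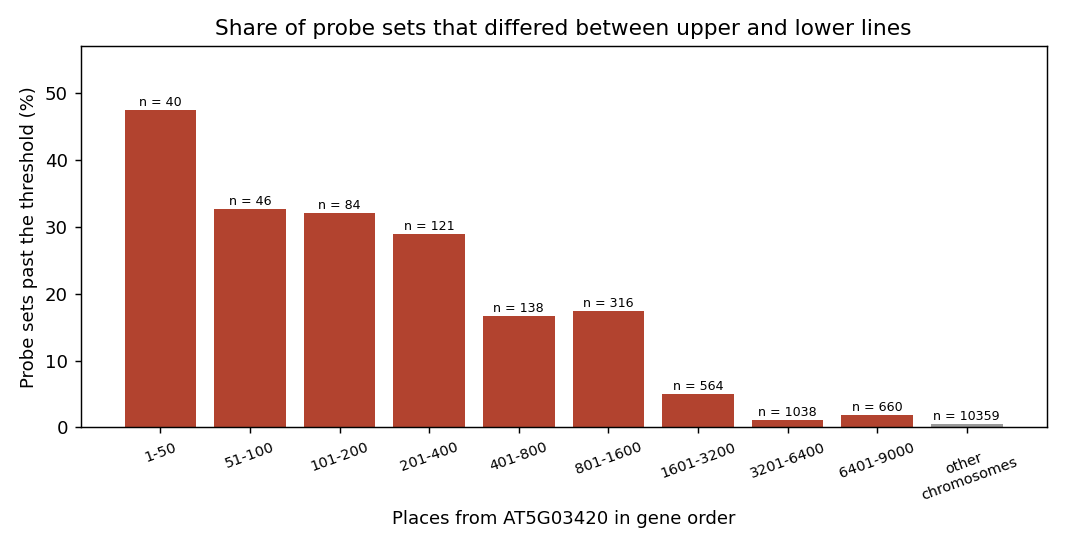
Percentage of probe sets that differed between upper and lower lines (vertical axis, adjusted p below 0.05) by distance from AT5G03420 in gene order (horizontal axis), with the 4 other chromosomes as the last bar and the number tested above each bar. The share is 47.5% in the nearest band and 0.579% on the other chromosomes.

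Linked differences were mostly small. The median size among those that differed was 0.21 on the log2 scale and the largest was 1.71. Differences of at least 0.5 were found for 18 linked probe sets, 5 on the rest of chromosome 5 and 6 on other chromosomes. Shares of variance given here are of the variance left after the letter and come from limma's moderated t. The split accounted for at least 50% of the variance of 14 linked probe sets and of none on other chromosomes. The highest share was 19.7% on other chromosomes, against 79.5% among linked genes. Even so, no linked or distant gene had upper and lower lines without overlap. Calls were more frequent at higher signals: 26 of 224 linked probe sets with a mean below 5 differed (11.6%), against 101 of 366 between 5 and 8 (27.6%) and 47 at 8 or more (30.3%). A probe set's signal depends on the transcript level and also on how well the array's short probes match the allele, and these values do not separate them for any linked gene.

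**Figure D3:**
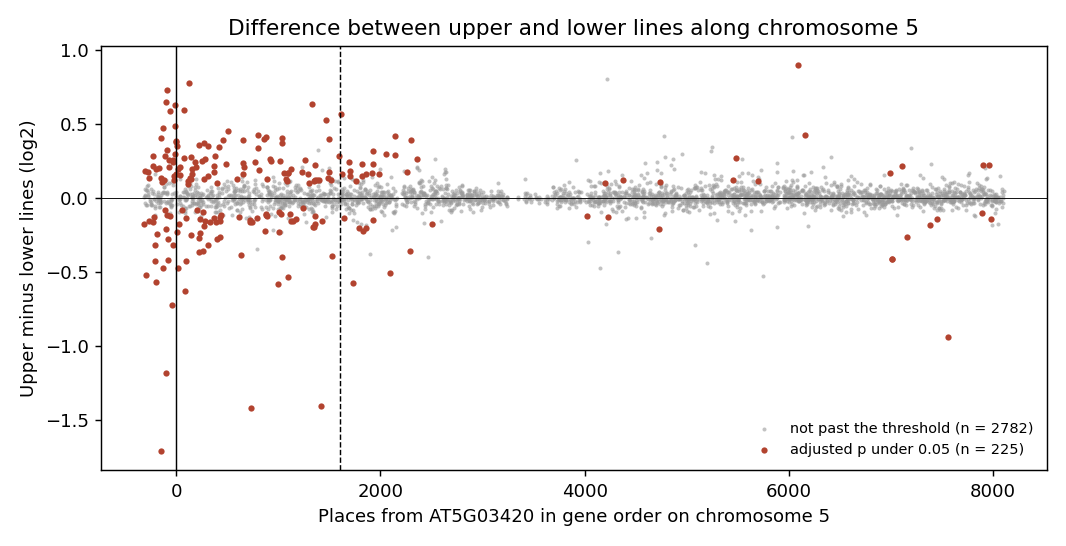
Upper minus lower difference in log2 signal (vertical axis) of each probe set on chromosome 5 against places from AT5G03420 in gene order (horizontal axis). Red points have an adjusted p below 0.05, the solid vertical line is AT5G03420 and the dashed line marks 1600 places. Red points are dense up to the dashed line, where the range runs to -1.71, and sparse beyond it.

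The gene with the strongest linked difference was AT5G02230, which encodes a hydrolase of the haloacid dehalogenase-like superfamily and lies at -149 places, where minus marks the side of the chromosome end. Its lowest, median and highest signals were 8.31, 9.54 and 11.37 in the upper lines, against 9.17, 11.40 and 11.85 in the lower lines. Most lines of the groups were far apart, and 2 upper and 3 lower lines stood nearer the mean of the other group. AT5G02230 averaged 9.63 ± 0.467 in upper lines and 11.31 ± 0.428 in lower lines (SD, n = 51 and 65), a difference of -1.71 (SE 0.081, limma adjusted p = 1.91e-37) that accounted for 79.5% of its variance. The difference was -1.68 in Q lines and -1.75 in R lines.

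AT5G03970, an F-box family gene 80 places toward the centromere, was higher in the upper lines. Its lowest, median and highest signals were 8.09, 8.38 and 8.67 in upper lines, against 7.48, 7.79 and 8.46 in lower lines. Only 1 upper and 3 lower lines stood nearer the other group's mean. The difference was 0.59 (SE 0.029, limma adjusted p = 1.09e-36). AT5G02740, at -83 places, had 7.66, 7.87 and 8.19 in upper lines, against 8.04, 8.31 and 8.52 in lower lines. Its values were tightly grouped, with SDs of 0.121 in upper and 0.101 in lower lines, so that a difference of only -0.42 (limma adjusted p = 1.11e-35) accounted for 77.6% of its variance.

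AT5G02580 was lower in upper lines by a larger step, with 4.96, 5.66 and 6.62 against 5.83, 6.89 and 8.14 in lower lines and a difference of -1.19 (limma adjusted p = 4.45e-25). AT5G02720 moved the other way, with 5.66, 6.15 and 6.86 in upper lines against 5.02, 5.41 and 5.90 in lower lines and a difference of 0.73 (limma adjusted p = 1.94e-31). Both lie on the side of the chromosome end, at -102 and -86 places. AT5G03350, which encodes a legume lectin-like protein and lies at -10 places, had 5.11, 5.70 and 7.56 in upper lines against 4.80, 5.09 and 5.57 in lower lines, a difference of 0.62 (limma adjusted p = 1.34e-17). Its upper lines were more spread than its lower lines, with SDs of 0.393 and 0.180, and the single highest line stood at 7.56.

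Of the 15 strongest linked genes 7 were higher in the upper lines. The lectin-like gene AT5G01090 differed by -0.53, with 8.70 ± 0.222 in upper and 9.24 ± 0.203 in lower lines. RAPTOR2, which encodes a partner of the TOR kinase that couples nutrients to growth, differed by -0.43, with 6.45 ± 0.201 in upper and 6.88 ± 0.178 in lower lines. The helicase gene AT5G05130 differed by -0.37, AT5G03120 by -0.73, and the zinc finger gene AT5G03510 by -0.48. Higher in the upper lines were the protein kinase gene AT5G03320 by 0.48, AT5G02370 by 0.47, AT5G03390 by 0.38, and AT5G07020, which encodes a thylakoid protein of photosystem maintenance, by 0.39. The limma adjusted p-values of these 9 genes lay between 1.21e-24 (AT5G03510) and 6.22e-16 (AT5G07020).

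**Figure D4:**
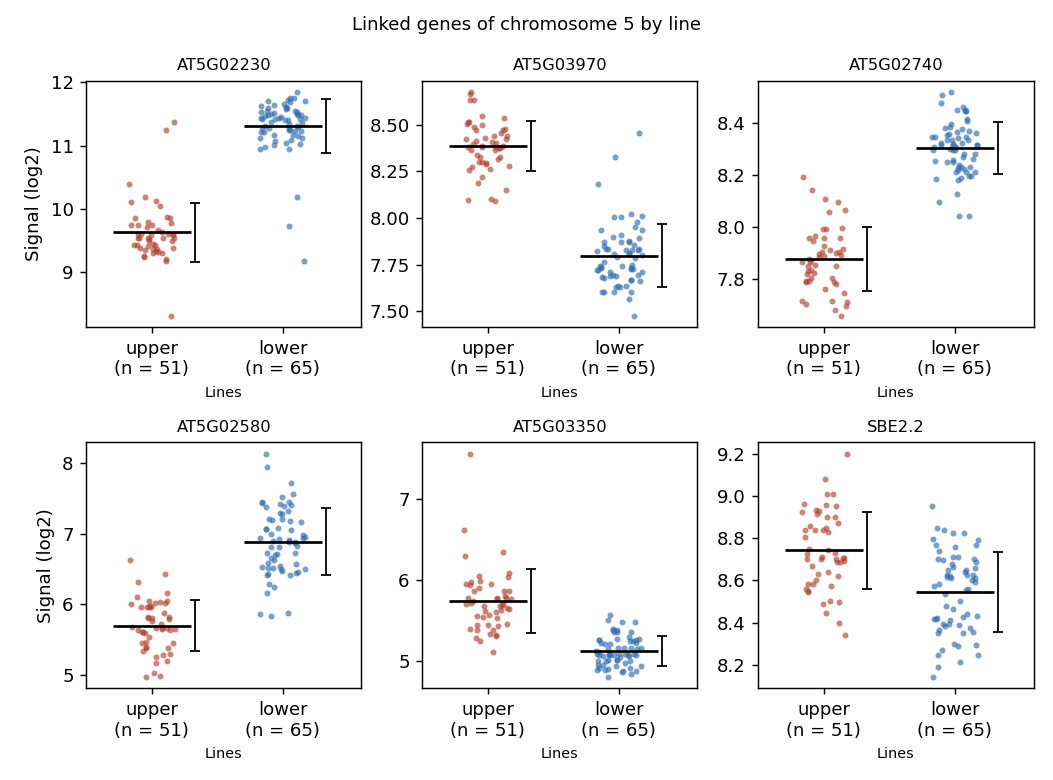
Log2 signal (vertical axes) of 6 linked genes in the 51 upper and 65 lower lines (horizontal axes). Points are lines, horizontal bars are means and error bars are SD. AT5G02230, AT5G02740 and AT5G02580 sit lower in the upper lines, while AT5G03970, AT5G03350 and SBE2.2 sit higher, and the groups overlap in every panel.

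The immediate neighbours of AT5G03420 did not move as a block. On the side of the chromosome end, AT5G03390 at -4 places and AT5G03380, a heavy metal-associated domain gene at -5 places, were each higher by 0.38 in upper lines (limma adjusted p = 1.92e-16 and 5.28e-13), and AT5G03370 at -6 places was higher by 0.16 (limma adjusted p = 0.000665). On either side of them, AT5G03400 at -3 places differed by 0.04 (limma adjusted p = 0.381) and AT5G03360 at -7 places by 0.01 (limma adjusted p = 0.849). Both had low mean signals, 3.48 and 3.86, where few linked differences were found. On the side of the centromere, AT5G03440 at 5 places was higher by 0.35 (limma adjusted p = 6.07e-14) and the glycosyltransferase gene AT5G03490 at 13 places by 0.19 (limma adjusted p = 4.33e-06), whereas AT5G03460 at 10 places was lower, at -0.23 (limma adjusted p = 6.89e-10). AT5G03430, 2 places away, had 6.81 ± 0.145 in upper lines and 6.81 ± 0.175 in lower lines and differed by 0.00 (limma adjusted p = 0.988), and AT5G03450 differed by -0.04 (limma adjusted p = 0.591). Of the 10 measured neighbours, 6 passed the threshold, 5 of them higher and 1 lower.

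Another 3 linked genes had large differences without being among the 15 strongest by test, and they were chosen after their values were seen. AT5G09570 had 6.48, 8.02 and 10.24 in upper lines, against 7.29, 9.80 and 10.95 in lower lines, a difference of -1.42 (limma adjusted p = 1.03e-12). NAMT1, which encodes a nicotinate methyltransferase, had 3.85, 5.26 and 6.47 in upper lines against 3.67, 4.38 and 5.56 in lower lines, a difference of 0.77 (limma adjusted p = 5.42e-12). AT5G15360, 1414 places away, had 4.62, 5.43 and 8.47 in upper lines against 4.77, 7.87 and 8.36 in lower lines, a difference of -1.41 (limma adjusted p = 7.15e-07). In AT5G15360 most upper lines were low and most lower lines high, but both groups covered nearly the same range. Together with AT5G02230 and AT5G02580, AT5G09570 and AT5G15360 were the 4 linked genes that differed by at least 1.

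Signals that fall into 2 separate modes let the split be followed along the chromosome line by line. Such a pattern, with modes at least 1 log2 unit and 4 SD apart, was found for 31 probe sets of chromosome 5 besides AT5G03420, of which 4 were linked. The modes of AT5G02230 lay at 9.57 and 11.38, and 5 of 115 lines (4.35%) did not follow the split. AT5G14700, 1330 places away, differed from it in 23 of 110 lines (20.9%), AT5G15360 in 27 of 116 (23.3%) and AT5G15750, 1463 places away, in 28 lines (24.6%). Farther down, AT5G16980 at 1617 places differed in 22.8% of lines and CSA1 at 1731 places in 24.1%. These shares were like those of AT5G15360 and AT5G15750, although both genes lie beyond the linked window. AT5G24240 at 2466 places differed in 36.2%, and the genes from AT5G38180 at 4221 places onward in 38.3% to 49.5%. Because the smaller share was taken, unrelated patterns give values near 50%, and the marker genes of the other 4 chromosomes gave 42.6% to 50%. The lines of the upper group thus shared nearly all of their pattern with AT5G02230 and less with genes farther along the chromosome.

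Starch synthesis was represented by 7 measured genes of a list of 22, AT5G03420 not counted, and 1 of them was higher in the upper lines, beside 2.27% of all probe sets and 23.4% of linked ones that differed. This was SBE2.2, which encodes a starch branching enzyme and lies 35 places from AT5G03420. Its lowest, median and highest signals were 8.34, 8.71 and 9.20 in upper lines, against 8.14, 8.58 and 8.95 in lower lines. SBE2.2 averaged 8.74 ± 0.183 in upper and 8.54 ± 0.190 in lower lines, with wide overlap, and differed by 0.21 (SE 0.035, limma adjusted p = 5.81e-06), which accounted for 23.4% of its variance. The difference was 0.18 in Q lines (limma adjusted p = 0.0546 in those lines alone) and 0.24 in R lines (limma adjusted p = 0.00236). With the 3' minus 5' measure of all array controls as a covariate it was 0.11 (limma adjusted p = 0.299). The actin controls carried the difference between the groups in that measure. With the measure from the GAPDH and ubiquitin controls alone the SBE2.2 difference was 0.20 (limma adjusted p = 9.08e-06). The other 6 genes did not pass the threshold, among them PTST2 (AT1G27070), the partner in granule initiation, with 5.26 ± 0.135 in upper and 5.20 ± 0.135 in lower lines and a difference of 0.05 (limma adjusted p = 0.365), and APL4, a subunit of the enzyme that makes ADP-glucose, with a difference of 0.10 (limma adjusted p = 0.362). The 7 genes had differences of 0.02 to 0.21 with a median of 0.05, beside a median of -0.003 over all probe sets tested.

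Starch breakdown was represented by 3 measured genes of 23, and none passed. The differences were 0.00 for PWD, a glucan dikinase, 0.07 for AMY1, an alpha-amylase, and 0.08 for DPE1, the disproportionating enzyme. Of 2 sugar supply genes neither passed, including SWEET11, a sucrose exporter of the seed coat, with 12.51 ± 0.333 in upper and 12.57 ± 0.243 in lower lines.

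Of 10 measured late embryogenesis abundant genes, whose products protect drying cells, 1 was lower in the upper lines, and it is linked like SBE2.2. LEA4-5, 426 places from AT5G03420, had 6.81, 7.86 and 9.04 in upper lines against 7.42, 8.17 and 9.19 in lower lines, with overlap over most of the range. The difference was -0.27 (SE 0.075, limma adjusted p = 0.0256). The difference was -0.31 in Q lines and -0.23 in R lines, and neither passed alone. Nor did it pass with the AT5G15360 mode (-0.17, limma adjusted p = 0.786), the 3' minus 5' measure of all controls (-0.24, limma adjusted p = 0.324) or 10 principal components (-0.07, limma adjusted p = 0.79) as covariates. With the 3' minus 5' measure of the GAPDH and ubiquitin controls alone it did pass (-0.29, limma adjusted p = 0.0101). The median over the 10 genes was -0.01.

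The other lists, for storage proteins, oil bodies, fatty acid and oil synthesis, maturation regulators, nuclear photosynthesis, seed coat flavonoids, mucilage, cell cycle, endosperm, glucosinolates, heat shock and fruit wall, held no gene that passed. Their median differences ran from -0.08 for 5 glucosinolate genes to 0.19 for 2 seed coat flavonoid genes. Closest to the threshold was DFR, which encodes dihydroflavonol reductase of tannin synthesis, with 8.05 ± 0.457 in upper and 7.81 ± 0.402 in lower lines and a difference of 0.26 (limma adjusted p = 0.0505). The 4 storage protein genes differed by -0.03 to -0.01. In all, 55 of 227 listed genes had a probe set assigned to them alone, and 2 passed (3.64%), beside 2.27% of all probe sets tested. Both are among the 4 listed genes in the linked class, where 23.4% of probe sets passed, so the counts over the lists are read against these shares.

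On chromosome 5 beyond 1600 places the 51 probe sets that differed comprised 31 higher and 20 lower in the upper lines. The strongest was CSA1, which encodes a TIR-type immune receptor. It had 5.05, 5.49 and 6.75 in upper lines against 5.04, 6.50 and 6.89 in lower lines, and a difference of -0.58 (limma adjusted p = 8.4e-06). CSA1 spanned nearly the same range in both groups, and 14 upper and 14 lower lines were nearer the mean of the other group. AT5G16980, a dehydrogenase-like gene 1617 places away, was higher in upper lines by 0.56 (limma adjusted p = 2.21e-05), the chromatin remodeller gene CHR23 by 0.31 (limma adjusted p = 0.000148), and the receptor-like cytoplasmic kinase gene AT5G18610 differed by -0.23 (limma adjusted p = 0.000269).

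The other of the 5 strongest was AT5G51950, which encodes an oxidoreductase of the glucose-methanol-choline family and lies 6090 places away. It had 5.32, 7.09 and 8.78 in upper lines against 4.55, 6.19 and 8.39 in lower lines, with a difference of 0.89 (limma adjusted p = 2.87e-05). FACT, an acyltransferase gene 7558 places away that was chosen after its values were seen, had 4.97, 5.81 and 9.47 in upper lines against 5.18, 6.56 and 11.28 in lower lines and a difference of -0.94 (limma adjusted p = 0.0336). Both genes varied widely within each group.

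The calls of the 5 strongest far genes depended on the model. With the AT5G15360 mode as a covariate CSA1 differed by -0.07 (limma adjusted p = 0.939), AT5G16980 by 0.04 (limma adjusted p = 0.972), CHR23 by 0.08 (limma adjusted p = 0.889) and AT5G18610 by -0.07 (limma adjusted p = 0.866), while AT5G51950 passed. The same 4 genes did not pass with 10 principal components, and none of the 5 passed with the 3' minus 5' measure of all controls. That measure includes an actin control whose mode differed from the split in only 16.4% of lines. With that measure from the GAPDH and ubiquitin controls alone all 5 passed, CSA1 for example with -0.59 (limma adjusted p = 6.63e-06). In R lines alone none passed. The differences there were -0.47 for CSA1, 0.44 for AT5G16980, 0.80 for AT5G51950, 0.33 for CHR23 and -0.26 for AT5G18610. AT5G18610 did not pass in Q lines alone either, with -0.20 (limma adjusted p = 0.0949).

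Of the 60 distant probe sets, 18 lay on chromosome 1, 14 on chromosome 2, 19 on chromosome 3 and 9 on chromosome 4, with 27 higher and 33 lower in the upper lines. At 0.579% this share was below that of all probe sets, and 16 of the 60 passed when adjustment ran over the other chromosomes alone, 8 of them higher and 8 lower, an adjustment chosen after the data were seen. The full adjustment shares its threshold with the many linked differences. With the level of AT5G03420 in place of the 2 groups 417 distant probe sets passed. That fit uses the splitting values themselves and their variation within each group, so 417 is not a count for the split. When lines with an AT5G03420 signal within 0.3 of the threshold were left out, 117 passed. Without adjustment 980 of 10359 (9.46%) had p below 0.05.

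AT3G18210, an oxygenase-like gene, was the distant gene with the lowest p. It had 6.54, 6.81 and 7.13 in upper lines against 6.36, 6.69 and 6.92 in lower lines, so that the groups overlapped over most of their range. The difference was 0.12 (SE 0.023, limma adjusted p = 7.35e-05), 0.13 in Q lines and 0.12 in R lines, and it accounted for 19.7% of the variance. UGT78D1, which encodes the enzyme that adds rhamnose to flavonols, had 9.27, 9.71 and 10.32 in upper lines against 8.77, 9.50 and 9.90 in lower lines. Its difference was 0.21 (SE 0.042, limma adjusted p = 0.000175), 0.23 in Q lines and 0.20 in R lines.

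The other distant genes named as higher in the upper lines included AT4G12890, a GILT-type thiol reductase gene, with 5.84, 6.85 and 9.07 in upper lines against 5.58, 6.42 and 8.05 in lower lines and a difference of 0.46 (limma adjusted p = 0.000925). The pectin methylesterase gene AT1G23200 differed by 0.20 (limma adjusted p = 0.000625), the pectin acetylesterase gene AT1G09550 by 0.44 (limma adjusted p = 0.0119) and the pectate lyase gene AT4G13210 by 0.21 (limma adjusted p = 0.013). GH3.9, of the family that joins auxin to amino acids, differed by 0.20 (limma adjusted p = 0.00673). The remaining genes of this direction were AT1G03400 (0.22), AT1G55830 (0.16), AT3G10590 (0.42), AT4G19880 (0.12) and AT4G17660 (0.37).

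Lower in the upper lines was AT4G34600, with 3.75, 4.32 and 4.99 in upper lines against 3.87, 4.64 and 5.38 in lower lines and a difference of -0.32 (limma adjusted p = 0.000206). 2A6, an oxoglutarate-dependent dioxygenase gene of chromosome 1, had 5.21, 5.73 and 8.53 in upper lines against 5.38, 7.39 and 8.56 in lower lines. The median line of 2A6 was thus far lower in the upper group although both groups covered nearly the same range. Its difference was -0.93 (SE 0.189, limma adjusted p = 0.000361), -1.15 in Q lines and -0.68 in R lines. AT1G03400, the gene next to 2A6 in gene order, differed in the opposite direction, with 5.12 ± 0.303 in upper and 4.90 ± 0.206 in lower lines.

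Further distant genes that were lower in the upper lines were AT1G23120 (-0.38), AT3G60700 (-0.41), AT4G26060 (-0.12), AT2G01990 (-0.12), AT3G58000 (-0.11), AT4G31330 (-0.29), AT1G16850 (-0.36), the protein kinase gene AT2G39110 (-0.43), the carboxypeptidase-like gene scpl31 (-0.24) and AT3G56060 (-0.09). Their limma adjusted p-values lay between 0.000221 (AT1G23120) and 0.0104 (AT3G56060). The largest distant difference, noted after the values were seen, was that of AT3G58550, a lipid transfer protein-like gene, with 4.76, 6.35 and 10.14 in upper lines against 4.69, 7.49 and 11.49 in lower lines and a difference of -1.15 (limma adjusted p = 0.023). Among the 60 probe sets, 5 pairs of genes lay within 25 places of each other: AT1G03400 with 2A6, AT1G23120 with AT1G23200, AT1G75620 with GH9B7, AT2G16790 with AT2G16890, and AT2G18370 with AT2G18490. Only AT2G18370 and AT2G18490 differed in the same direction, and the other pairs differed in opposite directions. Whether 5 pairs are more than 60 genes placed at random would give was not tested.

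**Figure D5:**
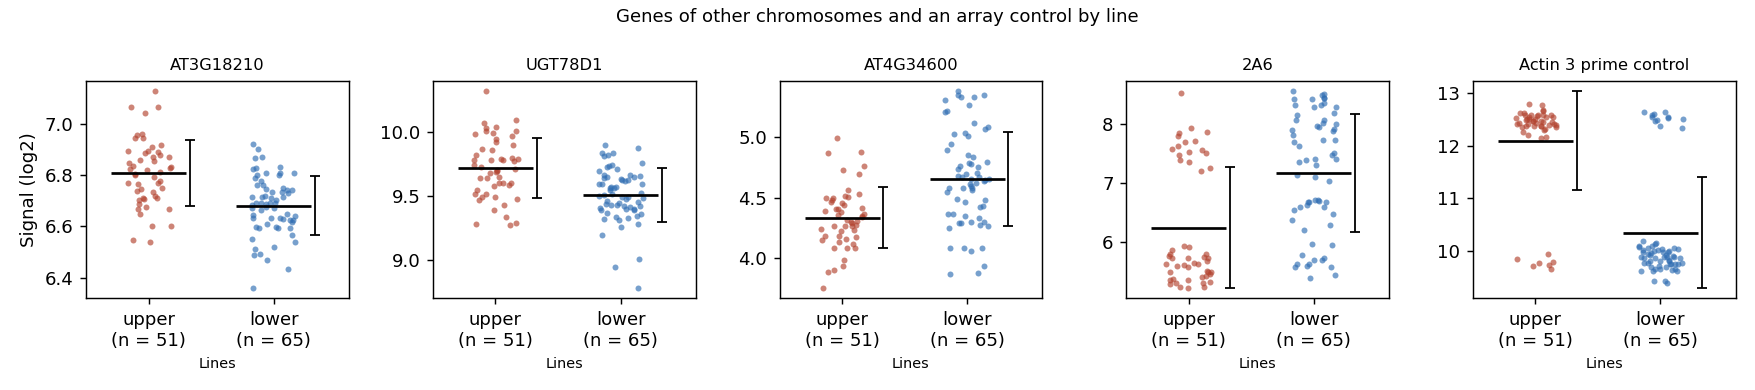
Log2 signal (vertical axes) of 4 genes of other chromosomes and of the actin 3' array control in the 51 upper and 65 lower lines (horizontal axes). Points are lines, horizontal bars are means and error bars are SD. The genes overlap broadly between groups, 2A6 spans 5.21 to 8.56 over all lines, and the control falls into modes at 9.84 and 12.48.

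Fewer probe sets passed when another gene of chromosome 5 entered the model. With the mode of AT5G15360 as a covariate, 7 distant probe sets passed in place of 60, and 3 on the rest of chromosome 5 in place of 51, while the linked share was 10.9% in place of 23.4%. Of the 24 distant genes named above by rule, AT3G18210, UGT78D1, AT1G55830 and 2A6 passed in that fit. AT5G15360 differed from the split in only 23.3% of lines. A covariate so close to the split widens the error of its estimate, so calls can be lost whichever stretch a gene follows. Among the far genes the estimate itself also shrank for CSA1 (-0.58 to -0.07), AT5G16980 (0.56 to 0.04), CHR23 (0.31 to 0.08) and AT5G18610 (-0.23 to -0.07). It changed less for AT5G51950 (0.89 to 0.69). Whether a distant gene follows one stretch or the other was not tested further.

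The difference had the same sign in Q and in R lines for each of the linked, 51 far and 60 distant probe sets that passed, a count made over genes chosen on both letters together. In the 59 Q lines alone 112 linked, 26 far and 23 distant probe sets passed, and in the 57 R lines alone 73, 3 and 4 did. No probe set passed a test of whether the split acted differently in Q and R lines (limma interaction term, 0 of 22745, or 0%), where 914 (4.02%) had an unadjusted p below 0.05 and the lowest adjusted p was 0.998. The smallest interaction p-values belonged to AT4G25510, AT1G49200, AT5G23920, AT5G24260 and GH9A3; AT5G23920, for example, differed by -0.34 in Q lines (adjusted p = 0.00213 in those lines alone) and by 0.02 in R lines (adjusted p = 0.97), and GH9A3 by 0.17 in Q lines (adjusted p = 0.0324) and by -0.06 in R lines (adjusted p = 0.779).

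Of 69 plastid probe sets 0 passed (0%, limma), and 2 had an unadjusted p below 0.05. Of 18 mitochondrial probe sets 0 passed and 3 had an unadjusted p below 0.05. A further 9292 probe sets had several genes, no gene or no position in the tables used here, and 232 of them differed (2.5%), with 138 higher and 94 lower in the upper lines. The largest was 250891_at, with 7.82 ± 1.01 in upper and 5.02 ± 0.999 in lower lines and a difference of 2.83 (limma adjusted p = 7.98e-26). Some of these probe sets may lie in the linked stretch, so the linked count refers to probe sets with 1 placed gene.

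The array medians were 5.84 to 5.99, with group means of 5.91 in upper and 5.90 in lower lines (permutation test, p = 0.438). RMA normalisation sets all arrays to one distribution, so these medians cannot show whether the groups differed in overall level. Of 4 measured storage protein genes 3 were abundant in both groups, with AT1G03890 averaging 13.41 ± 0.138 in upper and 13.44 ± 0.103 in lower lines, and AT2G18540 was low, with 5.43 ± 0.325 in upper and 5.42 ± 0.301 in lower lines. Of 2 measured fruit wall genes of 6 none passed and their summed log2 signals ran from 12.98 to 14.63 in upper and 13.06 to 14.30 in lower lines. The 2 measured endosperm genes of 10 summed to 7.22 to 8.18 in upper and 7.22 to 8.07 in lower lines, near the bottom of the scale. The 3' minus 5' signal of the array's control genes, meant as a measure of RNA integrity, was 1.05 ± 0.30 in upper and 0.59 ± 0.31 in lower lines (permutation test over 100000 resamples, p = 1e-05, the smallest it can give). It was 0.594 ± 0.201 in upper and 0.559 ± 0.132 in lower lines from the GAPDH and ubiquitin controls alone (p = 0.263), so that the actin controls carried the difference. With the 3' minus 5' measure of all controls as a covariate 75 linked, 2 far and 15 distant probe sets passed, and with that of GAPDH and ubiquitin alone, added after the data were seen, 170, 55 and 68 did. An actin 3' control in the measure of all controls differed from the split in 16.4% of lines, fewer than the 23.3% of AT5G15360. As a covariate that measure can therefore also widen the error of the split's estimate.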

How the data were processed

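Seeds of 116 recombinant inbred lines were measured on Affymetrix Arabidopsis arrays, 1 array per line. The authors deposited log2 signals of 22810 probe sets, normalised with RMA per the submitters' processing notes; its version was not given in the sources used here, and RMA sets all arrays to one distribution. Scanner files were not used here, so probe-level mismatches between accessions were not separable from transcript level, and for arrays the number of lines limits the precision.

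After leaving out 64 array controls and the splitting probe set, 22745 probe sets were tested with limma 3.58.1 in R 4.3.3 (lmFit and eBayes, upper minus lower lines, letter as covariate) with Benjamini-Hochberg adjustment over all of them at 0.05. The platform annotation, updated through RefSeq's TAIR10.1 gene table, which gave only names and gene order, left 13512 probe sets with 1 gene, 503 with several and 8730 with none. No pseudocount or low-signal filter was applied. Single array measures were compared by two-sided permutation tests (100000 resamples). The fit was tested on simulated data.

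The split, the gene lists and the rules were chosen with earlier results of these data known. Named genes were, among probe sets with 1 gene that passed, the 15 linked, the 5 other chromosome 5 and the 12 distant genes per direction with the smallest p, the 5 nearest genes on each side of AT5G03420, members of lists that passed, and the 5 smallest interaction p-values; linked genes in 2 modes were also named. Alternatives covered filters, centring, covariates, array weights, the splitting level, letters apart and the linkage window. Sequences are not printed here.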

Additional observations from a re-analysis of the deposited data

Results flagged for a closer look

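Array control probe sets stood outside the comparisons, and 2 of the 19 Arabidopsis controls followed the split. The actin 3' control AFFX-r2-At-Actin-3_s_at had 9.64, 12.43 and 12.79 as its lowest, median and highest log2 signal in upper lines, against 9.39, 9.92 and 12.65 in lower lines. It averaged 12.10 ± 0.947 in upper and 10.34 ± 1.06 in lower lines, a difference of 1.76 (two-sided permutation test, p = 1e-05, the smallest that 100000 resamples can give, and 9.5e-05 adjusted over the 19 controls). The second actin control, AFFX-Athal-Actin_3_f_at, averaged 9.17 ± 0.418 in upper and 8.48 ± 0.388 in lower lines, a difference of 0.69 with the same p-values.

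The first control fell into modes at 9.84 and 12.48, and 19 of 116 lines (16.4%) did not follow the split. The share of lines unlike its mode was 17.4% at AT5G02230, 11.8% at AT5G14700, 12.1% at AT5G15360, 19.8% at AT5G20700 and 30.2% at AT5G24240. ACT7, an actin gene, lies 764 places from AT5G03420 and had no probe set with 1 gene here. The sources used here do not name the actin gene that the control reads, and its part in the pattern was not tested.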

How the results depend on the processing

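No paired analysis was possible because each line was measured once and line numbers name different lines. The shares of linked, far chromosome 5 and distant probe sets that passed were 23.4%, 2.25% and 0.579%, and they stayed within 1.5 times of these with arrays centred on their medians, no letter, the AT4G02540 and AT1G23960 splits as covariates, shared probe sets left out, and GAPDH and ubiquitin as covariate. Fewer probe sets were tested with a mean signal of at least 5, where 3.87% far and 1.12% distant ones passed. The level of AT5G03420, which also varies within each group, gave 6.54% far and 4.03% distant. Leaving out lines near the threshold gave 3.49% and 1.13%, and array weights 0.936% distant. Splits at 13 genes of chromosomes 1 to 4 (added after seeing the data) gave 3.63% and 1.72%. The AT5G15360 split as covariate left 10.9%, 0.133% and 0.0676%, the 3' minus 5' measure 10.1%, 0.0884% and 0.145%, and 10 principal components 14.8% linked and 0.575% far. With 10 components 68 distant probe sets passed, of which 8 were among the 60. Q lines alone gave 15%, 1.15% and 0.222%, and R lines alone 9.8%, 0.133% and 0.0386%. Linkage windows of 800 and 2400 places gave 4.11% and 1.23% far, and adjustment over chromosomes 1 to 4 alone 0.154% distant. The interaction count was 0 under each alternative run.

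Of the 24 distant genes named by rule, 4 passed with the AT5G15360 split, 6 with 10 components, 14 in Q lines and 2 in R lines. With the 3' minus 5' measure of all controls 1 passed (AT3G18210), and with that of GAPDH and ubiquitin alone all 24 did. AT5G23920 gained a call with the level (-0.16), without lines near the threshold (-0.19), with weights (-0.18) and in Q lines (-0.34), and GH9A3 in Q lines (0.17). Genes whose sign turned did not pass where it did: AT5G03430 was at -1e-04 with centred arrays, -0.0015 with 2 splits and -0.0052 with 13, -0.0116 with components, -0.0073 with weights and -0.0312 in R lines. AT5G23920 was at 0.0144 with AT5G15360, 0.0125 with components and 0.0177 in R lines, and AT5G24260 at 0.0105 with the level and 0.0779 in R lines. AT4G25510 was at 0.016 and GH9A3 at -8e-04 with components, and they were at 0.048 and -0.0643 in R lines. AT1G49200 was at 0.0477 in Q lines and AT5G03450 at 0.0029 in R lines. The cause of these changes was not tested.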
